A study of Mus musculus with 6 samples.

Results

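Eukaryotic translation initiation factors (eIF) and elongation factors (eEF), the proteins that bring ribosomes to messenger RNA and move them along it, were followed in interscapular brown adipose tissue of the mouse. The rule that picks the genes goes by symbol: protein-coding genes of the GENCODE M21 annotation whose symbol begins with Eif or Eef and a digit. The rule found 68 genes among 21951 annotated protein-coding genes. Of these 68 genes, 58 had at least 1 read, against 7387 protein-coding genes and 8129 genes of any type with reads in all. Of the 58, 28 passed the filter on low counts and were tested. All mice were wild-type males of strain C57BL/6N, 20 weeks old. Cold mice 4, 11 and 15 were housed singly at 4 °C for 24 h, and control mice 2, 9 and 14 formed the other group, so that there were 3 libraries of full-length cDNA per group, 1 from each mouse. Animal husbandry was described as 22 to 24 °C for all mice. All 6 sample records carry the text of the cold treatment, and groups were taken from the sample titles. Whether the controls were housed singly is not known, so cold and single housing cannot be told apart. The extraction text names a white fat depot, while the tissue label gives interscapular brown fat.

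In initiation, eIF2 carries the initiator tRNA to the small ribosomal subunit, and eIF2B recharges eIF2 with GTP. The cap-binding complex eIF4F, made of the cap-binding eIF4E, the scaffold eIF4G and the RNA helicase eIF4A, recruits the small subunit with the help of the large eIF3 complex. The 4E-BP proteins bind eIF4E and keep it from eIF4G until the kinase mTORC1 phosphorylates them. In elongation, eEF1A delivers aminoacyl-tRNA to the ribosome, the eEF1B subunits exchange its nucleotide, and eEF2 moves the ribosome by a codon. Brown fat burns fuel to make heat and takes part in the defence of body temperature in the cold.

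The cold libraries gave 2922939, 2982630 and 2951811 reads, and the control libraries gave 1849351, 1014812 and 1735298 reads. No control library was as deep as any cold library, and the effects of depth and of group cannot be told apart. Values given below as reads are raw counts, so at an equal level the deeper cold libraries hold more of them. A floor of 3 reads stood at 0.988 to 1.01 CPM in cold and 1.62 to 3.08 CPM in control libraries, where CPM is edgeR's normalised read count, relative to the scaled size of the library. The 8 brown adipocyte markers all had reads, and their levels summed to 13893 to 14928 CPM in cold and 14215 to 19046 CPM in control libraries. Single markers in this sum moved in opposite directions: of 6 tested, Elovl3 (3.69, edgeR adjusted p = 6.1e-05) and Kcnk3 (1.35, edgeR adjusted p = 0.00176) were called higher in the cold and Cox8b (-0.98, edgeR adjusted p = 0.0127) lower. Ucp1 (-0.13, edgeR adjusted p = 0.475), Cidea (0.08, edgeR adjusted p = 0.667) and Cox7a1 (-0.06, edgeR adjusted p = 0.806) were not called. Of 6 tested general adipocyte markers Adipoq was called lower (-0.88, edgeR adjusted p = 0.00220). The 4 white adipocyte markers, all read, summed to 256, 166 and 177 CPM in cold mice 4, 11 and 15, against 66.5, 119 and 93.6 CPM in control mice 2, 9 and 14, without overlap. Most of this was Retn, the resistin gene and the only one tested, which was called higher (1.07, edgeR adjusted p = 0.0121). The part of the white fat markers in the results below was not tested. Skeletal muscle markers differed far more between libraries. Their sum was 229, 3243 and 15362 CPM in cold mice 4, 11 and 15, against 145, 596 and 1043 CPM in control mice 2, 9 and 14, with 14 of 15 markers read and Myh2 at 0. Cold mouse 15 stood apart in these genes, and values without it are given with each translation factor called below. Blood cell markers summed to 16327 to 22521 CPM in cold and 14978 to 28132 CPM in control libraries, with 5 of 6 read and Ptprc at 0. Macrophage markers summed to 53.0 to 122 CPM in cold and 52.8 to 86.3 CPM in control libraries, with 4 of 7 read and Adgre1, Cd68 and Csf1r at 0.

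Of the 28 tested genes, 4 were called lower in cold than in control brown fat, at a Benjamini-Hochberg adjusted p under 0.05 from edgeR's quasi-likelihood test. They were Eif4a1, the helicase of eIF4F, Eif4ebp1, the 4E-BP1 repressor of eIF4E, Eif2s2, the beta subunit of eIF2, and Eef1a1, the tRNA-delivering eEF1A1. No gene was called higher, and 24 were not called; 6 of the 28 had an unadjusted p under 0.05, against 44% of all tested genes. Over all 2093 tested genes 15.1% were called lower, 18.1% higher and 33.2% either way. The 14.3% of translation factors called lower was thus near the background. The median log2 change, cold minus control, was 0.10 over the 28 genes and 0.04 over all tested genes, and 18 of the 28 values were positive. All cold libraries lay below all controls for 5 of the 28, against 21.8% of all tested genes, and above them for 3, against 26%.

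**Figure D1:**
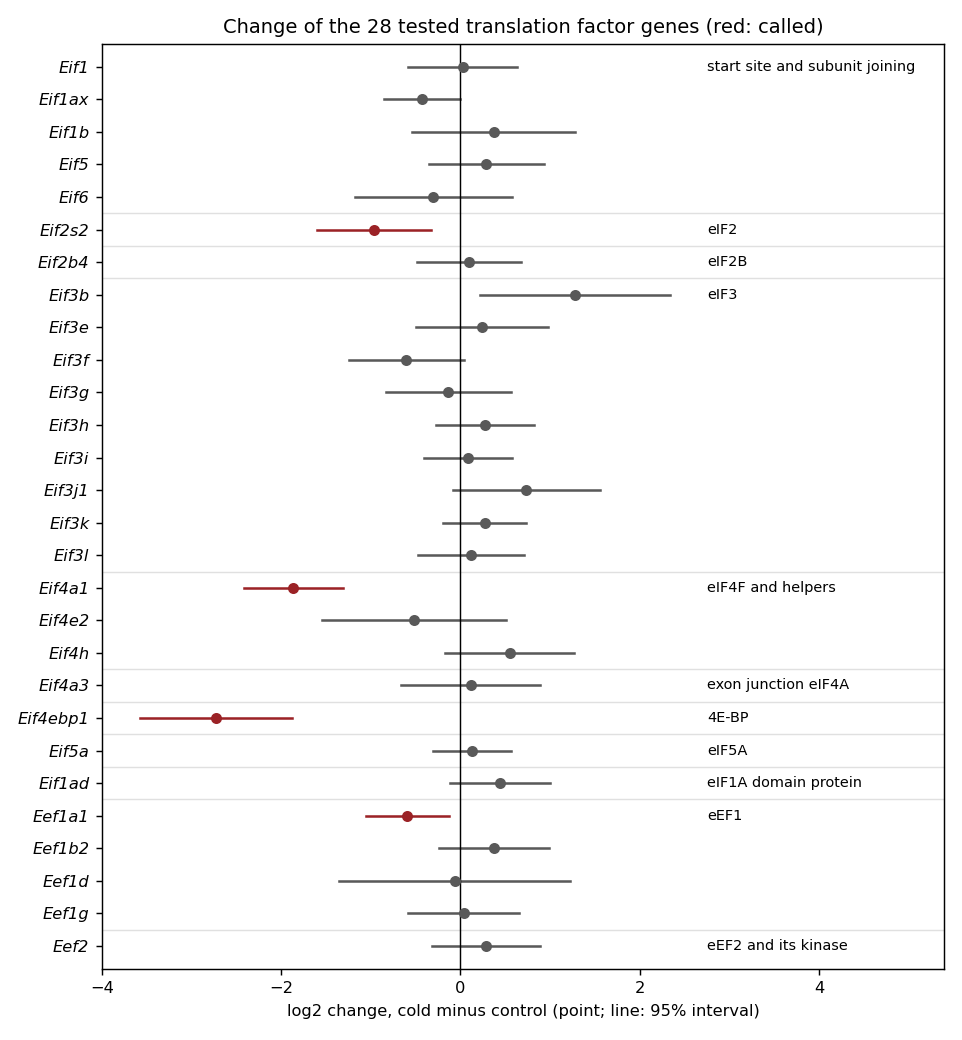
Log2 change, cold minus control, of the 28 tested genes (point) with its 95% interval (line), ordered by the part each plays in translation. The intervals of Eif4a1, Eif4ebp1, Eif2s2 and Eef1a1, drawn in red, lie below 0, while most others span 0.

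Eif4a1 (ENSMUSG00000059796, GRCm38 chr11:69666936-69672423, minus strand) encodes the eIF4A helicase that unwinds the start of a messenger RNA. It had 11.7, 13.9 and 17.8 CPM in cold mice 4, 11 and 15, against 57.3, 56.5 and 45.0 CPM in control mice 2, 9 and 14. The highest cold library stood well below the lowest control. The means were 14.5 ± 3.06 CPM in cold and 53.0 ± 6.90 CPM in control libraries (SD, n = 3 each), a log2 change of -1.86 ± 0.25 (SE; 95% interval -2.42 to -1.31; edgeR adjusted p = 0.000369). It was called in all 15 alternative analyses, of which the addition of near-identical copies changed no counts. Without cold mouse 15 the change was -2.03. At equal depth, with all libraries thinned to the smallest, it was -1.81 (edgeR adjusted p = 0.00171).

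Eif4a1 reads fell mainly on a pair of annotated transcripts that differ by 1 intron. Eif4a1-204, annotated as a retained-intron transcript of 1845 nucleotides, has the exons of the coding Eif4a1-213, of 1774 nucleotides, and keeps intron 7. The intron, of 71 bases at GRCm38 chr11:69668334-69668404 on the minus strand, is shown because it alone separates these transcripts. Its splice-site dinucleotides are in capitals, and the sequence was read from the GENCODE transcript.

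Eif4a1 intron 7: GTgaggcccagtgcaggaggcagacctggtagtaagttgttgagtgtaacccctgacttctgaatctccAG

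The intron length is not a multiple of 3. Read in the frame of Eif4a1-213, the transcript with the intron meets a tga stop that begins at base 61 of the intron, after 276 codons, while Eif4a1-213 has 406 codons before its own stop. Eif4a1-204 had 23, 30 and 35 reads in cold mice 4, 11 and 15, against 82, 36 and 54 reads in control mice 2, 9 and 14. Eif4a1-213 had 7, 11 and 15 reads in the cold mice, against 23, 16 and 21 in the controls. Both transcripts were called lower in the test of 2787 transcripts, of which 15.3% were called lower: Eif4a1-204 changed by -1.96 (edgeR adjusted p = 0.000242) and Eif4a1-213 by -1.88 (edgeR adjusted p = 0.00211).

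The split of reads between them did not differ beyond the spread between replicates. Of the reads on the pair, Eif4a1-204 took 76.7, 73.2 and 70.0% in the cold mice, against 78.1, 69.2 and 72.0% in the controls. The means were 73.3 ± 3.33% in cold and 73.1 ± 4.54% in control libraries (SD, n = 3 each), and the difference of 0.17 percentage points was within the spread between replicates (p = 1.0 by exact permutation test, two-sided; the smallest p possible is 0.1). Counting error was wide in single libraries: the 95% Wilson interval was 59.1 to 88.2% in cold mouse 4, with 30 reads, and 69.3 to 84.9% in control mouse 2, with 105 reads. The rule by which a read that fits both transcripts was given to one of them is not stated in the labels, and the share may rest on it.

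Other parts of eIF4F were rarely read. Eif4e, the cap-binding protein itself, had 11 reads over the 6 libraries, Eif4g1, the main scaffold, had 5, and Eif4a2, the paralogous helicase, had 10. Eif4b, which stimulates the helicase, had 11 reads, Eif4e3 had 23, Eif4g2 had 31 and Eif4g3 had 1. None of these was tested. Among the tested genes of the group, Eif4h, another helicase helper, had a log2 change of 0.55 ± 0.33 (edgeR adjusted p = 0.220), and Eif4e2, a cap-binding homologue that does not bind eIF4G, had -0.52 ± 0.46 (edgeR adjusted p = 0.420). Eif4a3, the eIF4A homologue of the exon junction complex, had 12.8, 10.6 and 10.5 CPM in the cold mice, against 6.49, 8.22 and 16.2 CPM in the controls. Its groups overlapped (0.11 ± 0.35, edgeR adjusted p = 0.829). The ratio of Eif4a1 to Eif4a3 reads, a pair chosen after the values were seen, was 0.921, 1.31 and 1.69 in the cold mice, against 8.83, 6.88 and 2.78 in the controls. Every cold library lay below every control (p = 0.1 by exact permutation test, the smallest possible), which is given as a description.

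Eif4ebp1 (ENSMUSG00000031490, GRCm38 chr8:27260329-27276674, plus strand) encodes 4E-BP1 and changed most of the 28. It had 4.70, 6.62 and 11.5 CPM in cold mice 4, 11 and 15, against 66.0, 56.5 and 30.6 CPM in control mice 2, 9 and 14. No cold library reached the level of a control. The means were 7.62 ± 3.52 CPM in cold and 51.0 ± 18.3 CPM in control libraries (SD, n = 3 each), a log2 change of -2.73 ± 0.38 (SE; 95% interval -3.58 to -1.88; edgeR adjusted p = 0.000443), or 6.64-fold lower in the fit. All of its 297 reads fell on Eif4ebp1-201. It was called in all 15 alternatives, with a change of -3.15 without cold mouse 15 and of -2.82 at equal depth (edgeR adjusted p = 0.000705). Eif4ebp2, which encodes a second 4E-BP, was not tested. It had 7, 7 and 5 raw reads in the cold mice, against 5, 2 and 5 in the shallower control libraries. Eif4ebp3 had no reads.

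Eif2s2 (ENSMUSG00000074656, GRCm38 chr2:154871410-154892935, minus strand) encodes eIF2 beta, the subunit that contacts eIF5 and eIF2B. It had 12.1, 17.2 and 19.1 CPM in cold mice 4, 11 and 15, against 40.0, 31.9 and 22.8 CPM in control mice 2, 9 and 14. The groups did not overlap, but the highest cold and lowest control library were close. The log2 change was -0.97 ± 0.29 (SE; 95% interval -1.60 to -0.33; edgeR adjusted p = 0.0249), and -1.11 without cold mouse 15. The call was less firm than the 2 above: it held in 8 of 15 alternatives, of which the addition of copies changed no counts. It was lost with no count filter and with flow cell 2 alone. The adjusted p from edgeR also reached 0.101 without cold mouse 4, 0.0570 without cold mouse 11 and 0.0850 without control mouse 2. It was 0.0502 without control mouse 9 and 0.0509 at equal depth.

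Other eIF2 subunits fell under the filter. Eif2s1 encodes the alpha subunit, whose phosphorylation slows initiation. It had 11, 19 and 9 raw reads in the cold mice, against 4, 1 and 1 in the shallower control libraries. With no count filter, on all 6 libraries, its log2 change was 1.77 and it was not called (edgeR adjusted p = 0.0836). It passed the filter when a control library was left out. With so few control reads, it passed through its cold libraries. Without control mouse 2 it was called higher (log2 change 2.41, edgeR adjusted p = 0.0465), on 1 read in each control library left. It had 1.54 without control mouse 9 (edgeR adjusted p = 0.135) and 1.25 without control mouse 14 (edgeR adjusted p = 0.194). The ratio of Eif2s2 to Eif2s1 reads, again a pair chosen after the values were seen, was 3.27, 2.74 and 6.44 in the cold mice, against 18.5, 31.0 and 38.0 in the controls. The control values of this ratio rest on 1 to 4 Eif2s1 reads. The gamma subunit had 7 reads from the X-linked Eif2s3x and 30 from the Y-linked Eif2s3y. Of the 5 eIF2B genes only Eif2b4, which encodes the delta subunit, was tested, with 24.8, 15.2 and 20.4 CPM in the cold mice, against 18.4, 20.6 and 18.0 CPM in the controls (log2 change 0.10 ± 0.26, edgeR adjusted p = 0.804). Its groups overlapped. Eif2b1 had 40 reads over the 6 libraries, Eif2b5 had 41, Eif2b2 had 8 and Eif2b3 had 3. Eif2a and Eif2d, which can deliver initiator tRNA in place of eIF2, had 6 and 5 reads. Of the 4 eIF2 kinases, which phosphorylate eIF2 alpha under stress, Eif2ak1, Eif2ak2 and Eif2ak3 had no reads and Eif2ak4 had 1.

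Eef1a1 (ENSMUSG00000037742, GRCm38 chr9:78478449-78489151, minus strand) held 34.0% of the 29142 reads of all members. It had 574, 545 and 759 CPM in cold mice 4, 11 and 15, against 774, 878 and 1180 CPM in control mice 2, 9 and 14. The highest cold library, mouse 15, was just below the lowest control. The means were 626 ± 116 CPM in cold and 944 ± 211 CPM in control libraries (SD, n = 3 each), a log2 change of -0.59 ± 0.21 (SE; 95% interval -1.05 to -0.13; edgeR adjusted p = 0.0494). This p was close to the threshold. The call held in 7 of 15 alternatives, of which the addition of copies changed no counts. Among the losses were the fit with no count filter and the non-robust fit. The adjusted p from edgeR was 0.0765 with library totals alone in place of the trimmed-mean scaling, 0.0524 at equal depth, 0.140 without cold mouse 4, 0.176 without cold mouse 11, 0.0619 without control mouse 9 and 0.159 without control mouse 14. Without cold mouse 15 the change was -0.74 (edgeR adjusted p = 0.0292). Eef1a2, the eEF1A paralogue of muscle and neurons, had 1 read, in cold mouse 11.

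The partners of eEF1A1 did not pass the test. Eef1b2, the nucleotide exchange subunit eEF1B alpha, had 174, 144 and 273 CPM in the cold mice, against 184, 113 and 157 CPM in the controls (log2 change 0.37 ± 0.28, edgeR adjusted p = 0.324). Eef1g, the structural gamma subunit, had 31.2, 25.2 and 46.8 CPM in the cold mice, against 27.6, 37.0 and 36.6 CPM in the controls (0.04 ± 0.28, edgeR adjusted p = 0.932). Eef2, the translocase, had 73.8, 58.6 and 110 CPM in the cold mice, against 53.0, 66.8 and 79.2 CPM in the controls (0.28 ± 0.27, edgeR adjusted p = 0.453). In all 3 genes the groups overlapped and cold mouse 15, the library with the most muscle marker reads, was the highest of all 6; the part of muscle RNA in this was not tested. Without cold mouse 15 the log2 changes were 0.07 for Eef1b2, -0.24 for Eef1g and 0.01 for Eef2, so the positive values of these 3 genes rest on that library. Eef1d, the delta subunit, had a log2 change of -0.07 ± 0.58 (edgeR adjusted p = 0.943). Eef1e1 had 5 reads. The methyltransferases that modify elongation factors had 45 reads for Eef1akmt1, 15 for Eef2kmt, 4 for Eef1akmt2 and 3 for Eef1akmt4, and none was tested.

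Ratios of Eef1a1 to these partners were computed within each library, after the values were seen. The ratio to Eef2 was 7.77, 9.30 and 6.92 in the cold mice, against 14.6, 13.1 and 14.9 in the controls. The ratio to Eef1b2 was 3.29, 3.78 and 2.78 in the cold mice, against 4.20, 7.76 and 7.50 in the controls. Both ratios separated the groups completely, with log2 differences of -0.84 and -0.94. The ratio to Eif5a, at 1.56, 1.30 and 2.68 in the cold mice, against 2.49, 2.66 and 3.46 in the controls, overlapped. Each of the 5 ratios given here has a gene called lower as its numerator and was picked for it. The ratios thus restate that difference, together with any change in the denominator. An exact permutation test gave p = 0.3 for Eef1a1 to Eif5a and p = 0.1, the smallest possible, for each other ratio. Adjusted over the 5 ratios by Benjamini-Hochberg, these were 0.3 and 0.125. Because the pairs were picked after the values were seen, no conclusion is drawn from this test.

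**Figure D2:**
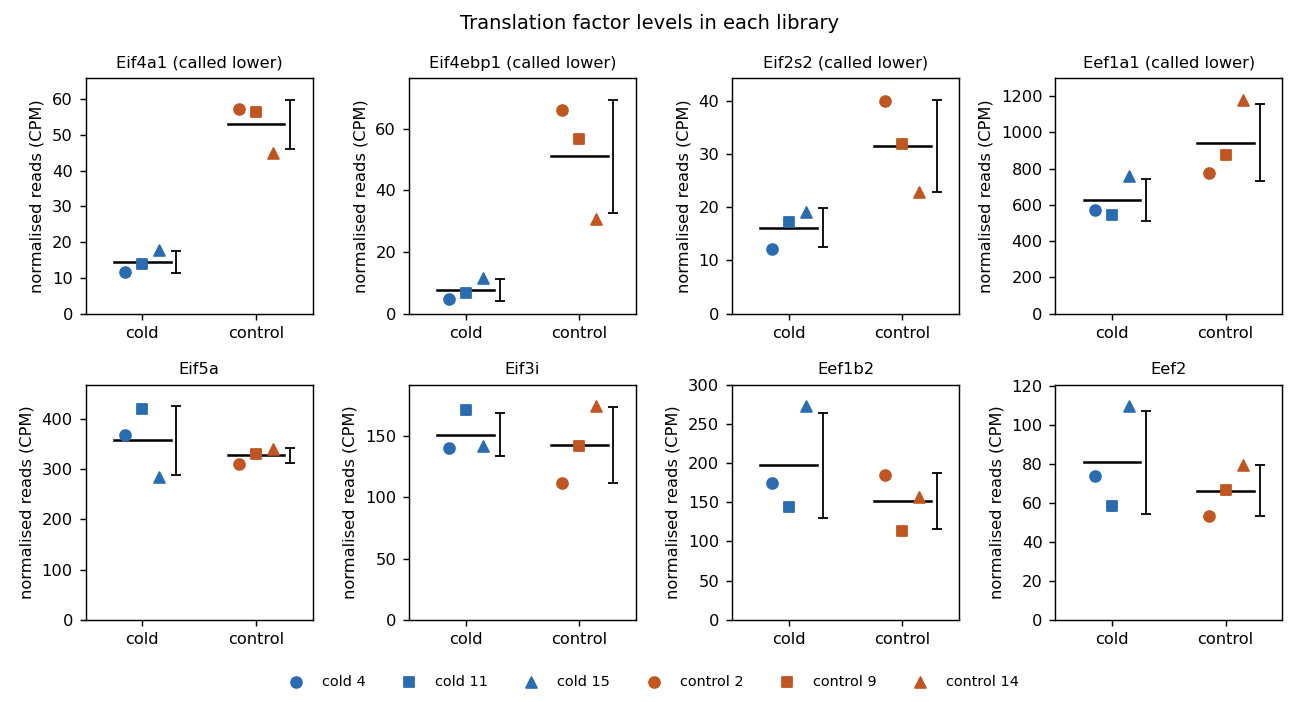
Normalised reads (CPM) of 8 genes in each cold (left, blue) and control (right, orange) library, with the group mean (line) and SD (bar, n = 3). The cold points of Eif4a1, Eif4ebp1, Eif2s2 and Eef1a1 lie below the controls, while those of Eif5a, Eif3i, Eef1b2 and Eef2 overlap them.

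Promoters of Eif4a1, Eif2s2 and Eef1a1, which are all the called genes but Eif4ebp1, are shown with that of Eef2. Eef2, 1 of several uncalled elongation factors, was picked after the matches were seen, as the only tested gene whose window holds TGACGTCA. Each window runs from 150 bases before to 20 bases after the RefSeq start, from the RefSeq promoter table on build GRCm38.p6, in which 52 of the 68 genes and 21 of the 28 tested genes had an entry. Capitals mark matches on either strand to TGACGTCA (the cyclic AMP response element), to its 5-letter part TGACG, to the E-box CACGTG, to the ETS motif CCGGAAG or to the TATA motif TATAAA. The windows lie at chr11:69672404-69672573 (minus strand), chr2:154892887-154893056 (minus strand), chr9:78481705-78481874 (minus strand) and chr10:81176481-81176650 (plus strand). The Eif4a1 window lies wholly upstream of position 69672317, where the annotated Eif4a1-204 and Eif4a1-213 begin. It thus does not hold the start of the transcripts on which most Eif4a1 reads fell.

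Eif4a1 promoter: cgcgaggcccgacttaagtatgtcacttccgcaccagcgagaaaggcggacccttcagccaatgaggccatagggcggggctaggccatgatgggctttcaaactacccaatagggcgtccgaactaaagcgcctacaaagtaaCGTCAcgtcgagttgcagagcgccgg
Eif2s2 promoter: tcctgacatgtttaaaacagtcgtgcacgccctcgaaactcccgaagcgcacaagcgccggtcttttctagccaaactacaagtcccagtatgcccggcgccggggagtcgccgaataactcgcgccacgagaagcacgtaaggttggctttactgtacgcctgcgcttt
Eef1a1 promoter: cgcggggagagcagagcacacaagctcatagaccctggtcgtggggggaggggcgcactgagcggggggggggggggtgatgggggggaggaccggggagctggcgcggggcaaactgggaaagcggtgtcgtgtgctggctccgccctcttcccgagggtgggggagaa
Eef2 promoter: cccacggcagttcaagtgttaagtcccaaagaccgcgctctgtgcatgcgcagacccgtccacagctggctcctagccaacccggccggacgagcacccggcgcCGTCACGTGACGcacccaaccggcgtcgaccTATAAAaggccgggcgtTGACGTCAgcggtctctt

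The Eef2 window held the full element, TGACG outside it, an E-box that overlaps TGACG on both strands, and TATAAA. The Eif4a1 window held TGACG alone, and the Eif2s2 and Eef1a1 windows held none of the 5. Of 32851 windows of this length in the table, 1.54% held TGACGTCA, 15.1% TGACG, 4.86% CACGTG, 6.73% CCGGAAG and 8.10% TATAAA. Among the 21 tested members with an entry, 1 held TGACGTCA, 8 TGACG, 6 CACGTG, 7 CCGGAAG and 2 TATAAA. The 32851 windows include those of genes that were not tested here. Their shares are thus not a matched background, and an excess among the members was not tested. These matches describe the letters of the windows, and binding was not measured.

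The eIF3 complex, which bridges the small subunit and eIF4F, had 9 of its 14 genes tested, and none was called, against 33.2% of all tested genes. Their log2 changes ran from -0.60 for Eif3f to 1.28 for Eif3b, with a median of 0.24. Eif3i had 140, 171 and 142 CPM in the cold mice, against 112, 142 and 175 CPM in the controls (0.08 ± 0.22, edgeR adjusted p = 0.799). Eif3k had 101, 91.0 and 112 CPM in the cold mice, against 97.9, 80.1 and 73.2 CPM in the controls (0.27 ± 0.21, edgeR adjusted p = 0.345). The groups overlapped in both. The levels of all eIF3 genes summed to 378 ± 13.6 CPM in cold and 347 ± 21.8 CPM in control libraries (SD, n = 3 each).

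Eif3b, a core scaffold subunit of eIF3, came nearest to a call in the upward direction. It had 7.72, 8.94 and 6.92 CPM in cold mice 4, 11 and 15, against 1.08, 6.17 and 3.60 CPM in control mice 2, 9 and 14. Every cold library was above every control, but the control values rest on 2, 6 and 6 reads, and the adjusted p missed the threshold (1.28 ± 0.48, edgeR adjusted p = 0.0626). With so few control reads, Eif3b passed the filter through its cold libraries. It was called higher in 2 of the 12 alternatives that tested it. These were library totals alone (edgeR adjusted p = 0.0489) and the fit without control mouse 9 (edgeR adjusted p = 0.0392). Eif3j1, which encodes the loosely bound subunit eIF3j, had 0.74 ± 0.37 (edgeR adjusted p = 0.152) and was called without control mouse 9 (1.12, edgeR adjusted p = 0.0436). Over the whole of the shorter transcript, that of Eif3j2, Eif3j1 and Eif3j2 are 99.4% identical, and their 185 and 3 reads may be split between them in an uncertain way. Of the other eIF3 genes tested, Eif3h had 22.1 ± 4.53 CPM in cold and 18.3 ± 0.261 CPM in control libraries (SD, n = 3 each), without overlap (0.27 ± 0.25, edgeR adjusted p = 0.429), while Eif3e, Eif3g and Eif3l overlapped, with log2 changes of 0.24, -0.14 and 0.12. Eif3c, Eif3d and Eif3m had 38, 27 and 41 reads and were not tested. Eif3a, the largest eIF3 subunit, had no reads.

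Start-site factors were uncalled as well. Eif1ax, which encodes the eIF1A protein that helps the ribosome scan, had 98.7, 94.7 and 104 CPM in the cold mice, against 129, 146 and 126 CPM in the controls. Every cold library was below every control, and its log2 change of -0.43 ± 0.19 did not pass (edgeR adjusted p = 0.107). Eif1, which guards against initiation at the wrong codon, had 69.1, 79.4 and 106 CPM in the cold mice, against 111, 82.2 and 57.0 CPM in the controls, and its groups overlapped (0.03 ± 0.28, edgeR adjusted p = 0.950). Eif5, which activates the GTPase of eIF2, had 0.29 ± 0.29 (edgeR adjusted p = 0.479), and Eif6, which keeps free large subunits from joining, had -0.30 ± 0.40 (edgeR adjusted p = 0.591). Eif1b, a close relative of Eif1, had 0.37 ± 0.41 (edgeR adjusted p = 0.523). Eif5b, which joins the ribosomal subunits, had 42 reads and Eif1a had 3, and neither was tested. Eif1ad, named for its eIF1A-like domain, had 35.9, 36.7 and 30.3 CPM in the cold mice, against 28.7, 17.5 and 28.2 CPM in the controls. All cold libraries were above all controls, but it was not called (0.44 ± 0.25, edgeR adjusted p = 0.205).

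Eif5a encodes the hypusine-bearing factor that eases peptide bond formation at stalling sequences. It had 368, 419 and 284 CPM in the cold mice, against 311, 330 and 341 CPM in the controls. The groups overlapped, with both the highest and the lowest library in the cold group (0.13 ± 0.20, 95% interval -0.31 to 0.56, edgeR adjusted p = 0.651). Its reads were split over 3 main transcripts with the same coding exons. Eif5a-201 carries a 94-base and Eif5a-202 a 30-base exon before the start codon that Eif5a-210 lacks. Eif5a-202 held 49.3 ± 2.09% of the reads in cold and 48.4 ± 1.98% in control libraries, Eif5a-201 held 29.0 ± 2.34% in cold and 28.5 ± 2.96% in control libraries, and Eif5a-210 held 18.8 ± 0.114% in cold and 18.7 ± 2.84% in control libraries (SD, n = 3 each).

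**Figure D3:**
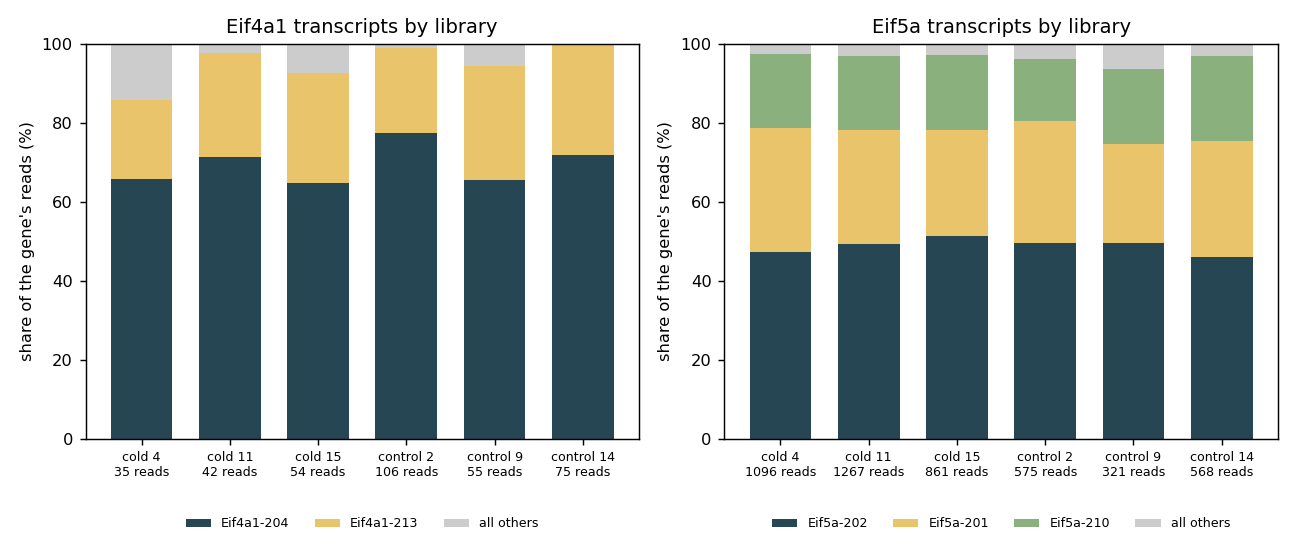
Share of each gene's reads (%, vertical axis) held by the main transcripts of Eif4a1 and Eif5a in the cold (left 3 bars) and control (right 3 bars) libraries, with the gene's read count under each bar. The shares of the named transcripts overlap between the groups, also in Eif4a1, where the cold libraries hold 35 to 54 reads and the controls 55 to 106.

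Transcript by transcript, 129 transcripts of the members had reads and 32, from all 28 tested genes, were tested. Of these, 5 were called lower and 0 higher, where 32.7% of all tested transcripts were called, 15.3% lower and 17.4% higher. Beside the Eif4a1 pair they were Eif4ebp1-201 (-2.74, edgeR adjusted p = 0.000242), Eif2s2-201 (-0.998, edgeR adjusted p = 0.0251) and Eef1a1-201 (-0.60, edgeR adjusted p = 0.0398). Only Eif2b4, Eif4a1 and Eif5a had more than 1 tested transcript. A change in the split of reads over transcripts was called by edgeR's diffSpliceDGE in 0 of these 3, with 0 at an unadjusted p under 0.05, where 1.67% of 539 such genes were called and 4.82% had an unadjusted p under 0.05.

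Levels of different genes were set side by side in CPM per kilobase of transcript and in CPM, since a read in these libraries may stand for a whole molecule, and division by length then favours short genes. Eef1a1 was the highest member on both scales, at 349 CPM per kb in cold and 527 CPM per kb in control libraries, and Eif5a came next on both, at 258 CPM per kb in cold and 236 in control libraries. Below them the order depended on the scale. Eif3i had 135 CPM per kb in cold and 127 in control libraries, Eif3k had 131 in cold and 108 in control libraries, and Eef1b2 had 103 in cold and 79.3 in control libraries. In CPM over all libraries, without division by length, the means were 174 for Eef1b2, 147 for Eif3i, 116 for Eif1ax and 92.4 for Eif3k. Eif4a1 stood at 7.82 CPM per kb in cold and 28.6 in control libraries. Together the members took 0.198, 0.195 and 0.235% of the reads in the cold mice, against 0.220, 0.220 and 0.248% in the controls. These shares overlap between the groups, and Eef1a1, Eif5a, Eef1b2 and Eif3i made up 62.9 to 71.8% of them in each library. Because the tissue was measured in bulk, fewer cells of a type and less RNA per cell cannot be told apart.

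Which members could be tested went with transcript length. The longest annotated coding transcript had a median of 1940.5 nucleotides in the 28 tested genes, 2631 in the 30 with reads but too few to test, and 4319 in the 10 with no reads. Over all protein-coding genes the medians were 1824, 2906 and 2751 nucleotides in the same 3 classes. The 10 unread genes were Eif4enif1, Eif4ebp3, Eef2k, Eif2ak1, Eif2ak2, Eif2ak3, Eif3a, Eif5a2, Eef1akmt3 and Eif4e1b. A gene with no reads is one not detectable at this depth and with this full-length protocol.

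**Figure D4:**
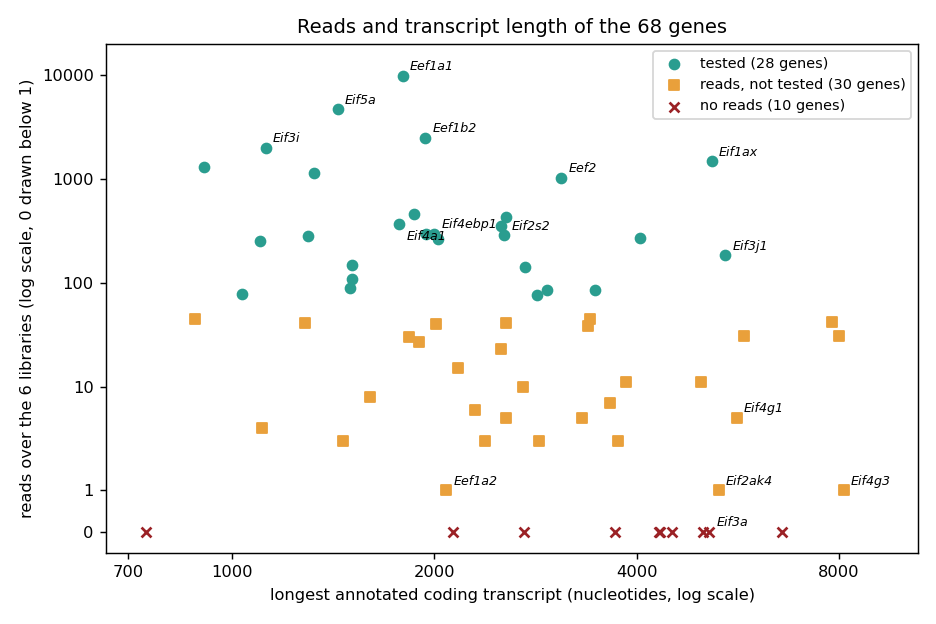
Reads over all 6 libraries (vertical axis, log scale, 0 drawn below 1) against the longest annotated coding transcript (horizontal axis, nucleotides, log scale) for the 68 genes. Tested genes lie mostly at the short end, with Eif1ax and Eif3j1 among the longer exceptions, and most genes with no reads lie at the long end.

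Genes that act on these factors were counted from lists of related pathways, beside the 33.2% of all tested genes called either way and the 18.1% called higher. With 1 to 6 tested genes in a list, a count near these shares is not a result about the list. Of 4 tested integrated stress response genes, 1 was called: Atf4, the transcription factor whose translation rises when eIF2 alpha is phosphorylated, had 425, 350 and 424 CPM in the cold mice, against 230, 221 and 202 CPM in the controls. It rose by 0.88 ± 0.18 (edgeR adjusted p = 0.00437) and was called in all 15 alternatives. Of 4 tested mTORC1 and MNK signalling genes, 1 was called: Rheb, the small GTPase that activates mTORC1, had 11.4, 11.6 and 13.2 CPM in the cold mice, against 3.79, 5.14 and 6.00 CPM in the controls (1.28 ± 0.33, edgeR adjusted p = 0.0116). In both genes every cold library lay above every control, but the control values of Rheb rest on 7, 5 and 10 reads.

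Dohh, which completes the hypusine on eIF5A, was the called gene of 2 tested in the hypusine and diphthamide list. It had 74.2, 84.1 and 65.2 CPM in the cold mice, against 17.8, 45.2 and 51.0 CPM in the controls (0.98 ± 0.34, edgeR adjusted p = 0.0444). The groups did not overlap, and the call held in 10 of 15 alternatives, of which the addition of copies changed no counts. It was lost in 5. Among them were the fits without cold mouse 4, cold mouse 11, control mouse 2 or control mouse 9, with edgeR adjusted p from 0.0613 to 0.119. Of 6 tested cytosolic tRNA synthetases 1 was called, the seryl-tRNA synthetase Sars, with 14.8, 13.9 and 12.5 CPM in the cold mice, against 7.57, 9.25 and 6.00 CPM in the controls (0.88 ± 0.29, edgeR adjusted p = 0.0373). That call held in 4 of 14 alternatives and was lost when any 1 library was left out, with edgeR adjusted p from 0.0502 to 0.130. None of 4 tested other initiation regulators, 3 mitochondrial translation factors and 1 gene of the poly(A)-binding protein list was called, and no release factor was tested.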

How the data were processed

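Poly(A) RNA was turned into full-length cDNA with a kit that selects capped molecules, amplified by PCR and sequenced on nanopore flow cells, per the labels' protocols. The deposited files hold raw read counts per Ensembl transcript, 1 file per flow cell (12 files, 2 per library), without normalisation by the authors. The submitters' processing notes name minimap2 and build GRCm38. No molecular identifiers are named, so the Wilson intervals and the read floors cover counting error only. The intervals of log2 changes come from edgeR's fit and include the spread between replicates.

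Counts were summed over flow cells and over the transcripts of a gene (GENCODE M21). Of 14693 transcript identifiers 14671 matched, and the other 22, with 0.00433% of the reads of a library at most, were left out. The robust quasi-likelihood F test of edgeR 4.0.16 (R 4.3.3) was run on genes and on transcripts, after filterByExpr at a minimum count of 10 and trimmed-mean (TMM) scaling, with Benjamini-Hochberg adjustment over all features tested and calls at 0.05. Log2 changes are cold minus control; the SE was worked back from F. Splits of reads over transcripts were tested with diffSpliceDGE, and the Eif4a1 share and the 5 ratios by exact permutation over the 20 assignments of 6 libraries. Near-identical copies were sought with blastn 2.17.0 at 95% identity over 80% of the shorter transcript. The only copies found were Eif3j1 and Eif3j2, both members, so adding copies changed no counts. That alternative, counted among the 15, repeats the reported fit. DESeq2 1.42.0 was an alternative. The scripts were tested on simulated data.

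The rule for members uses symbols alone, but these genes were taken up as a subject, and the lists and alternatives chosen, with earlier results of these data known. The naming rule took every called member, the 8 uncalled tested members with the highest mean CPM, called genes of each list and called transcripts; other members are named by role, and Eif3b, Eif3j1 and Eif2s1 more fully because an alternative called them; markers and ratios were named after their values were seen. Exons of Eef1b2 and Ndufs1, Eif2b4 and Snx17, and Eif1ad and Banf1 overlap on opposite strands, by a length that was not measured. No strand is stated for counting, so reads that lie within these overlaps cannot be told apart. Exons of Eef1d and Naprt, with 77 and 13 reads, overlap on the same strand, so a strand would not separate reads there.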

Additional observations from a re-analysis of the deposited data

How the results depend on the processing

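No paired analysis was possible because the mouse numbers are not shared between cold and control mice. Of the 28 tested members 4 were called, against 2 with no count filter and 2 at equal depth, and 2 to 4 with 1 library left out. Called lower were 4, against 2 with no count filter, 2 at equal depth and 2 to 4 with 1 library left out; called higher were 0, against 1 with library totals alone and 0 to 2 with 1 library left out. With no count filter 58 members were tested. Member transcripts called were 5, and 3 to 5 with 1 library left out. Genes with a called change in transcript usage numbered 9 over the whole table, against 3 with transcripts of at least 10 reads, 4 at equal depth and 2 to 6 with 1 library left out. Genes called numbered 695, between 522 and 708 under the other settings and between 498 and 687 with 1 library left out. The cause of these shifts was not tested.

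Eif4a1 and Eif4ebp1 were called under all 15 alternatives, at log2 changes of -2.05 to -1.63 and of -3.15 to -2.49. The alternative that adds copies repeats the reported values. Eif2s2 ran from -1.19 to -0.75 and Eef1a1 from -0.74 to -0.43, both without a change of direction. Directions turned only in uncalled genes. Eef1d was 0.0014 with library totals alone and 0.0426 with no count filter. Eef1g was -0.0140 with DESeq2, -0.0717 at equal depth and -0.0043 with flow cell 2 alone. Eif1 was -0.0292 with DESeq2 and -0.0498 with flow cell 1 alone. Eif2b4 was -0.0183 at equal depth and -0.0522 with flow cell 1 alone. Eif3l was -0.0871 at equal depth, and Eif4a3 -0.24 with flow cell 2 alone. With 1 library left out, Eef1d ran from -0.54 to 0.37, Eef1g from -0.24 to 0.23, Eif1 from -0.22 to 0.28, Eif2b4 from -0.10 to 0.27, Eif3g from -0.39 to 0.23, Eif3i from -0.0785 to 0.23, Eif3l from -0.14 to 0.23, Eif4a3 from -0.19 to 0.62 and Eif6 from -0.65 to 0.0455. With no count filter the median log2 change of all genes tested in both fits moved by 0.122, so changes under that setting are to be read relative to it.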

Other observations

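Eif2s3y, the Y-linked gene for eIF2 gamma, had 2, 1 and 20 reads in cold mice 4, 11 and 15, against 4, 1 and 2 reads in control mice 2, 9 and 14, so that 1 cold library held most of its 30 reads. Eif4h-205, one of the coding transcripts of Eif4h, held 92.4 ± 4.78% of the gene's reads in cold and 80.1 ± 1.63% in control libraries (SD, n = 3 each), with 32 to 40 reads of the gene per cold library and 10 to 14 per control library. All other reads of the gene fell on Eif4h-201, with 1, 3 and 4 in the cold mice, against 2, 2 and 3 in the controls. This split was not tested, because Eif4h had only 1 tested transcript. Eif2b4-203 held 52.5 ± 2.72% of the Eif2b4 reads in cold and 66.1 ± 9.16% in control libraries (SD, n = 3 each), with 46 to 74 and 20 to 34 reads of the gene per library. The Eif2b4 split was tested with diffSpliceDGE and was not called. Eef1akmt1, which encodes a lysine methyltransferase of eEF1A, was not tested for lack of reads. It had 12, 10 and 16 raw reads in the cold mice, against 3, 2 and 2 in the shallower control libraries.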
